A study of Homo sapiens with 21 samples.

Results

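Cholesterol and fatty acid metabolism was followed through 38 genes in the cell line THP1, which was derived from a human acute myeloid leukemia and resembles monocytes. The genes were taken by symbol from the deposited expression table, which lists 20423 genes, and all 38 were found. They fall into 5 regulators of lipid synthesis, 19 genes of sterol synthesis, 8 genes of fatty acid synthesis and 6 genes of lipid efflux and storage. Of the 38 genes, 36 had a mean of at least 10 normalized counts and could be tested. HSD17B7, a ketoreductase of sterol synthesis, was listed at 0 to 8.1 normalized counts and ELOVL6, a fatty acid elongase, at 0 to 14.9, and neither was tested. A normalized count is the authors' read count of a gene divided by 1 size factor per library.

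The study compared THP1 cells with less of the transcriptional corepressor IRF2BP2, or without the bZIP transcription factor ATF7 or JDP2, with control cells. IRF2BP2 was knocked down with either of 2 short hairpins carried by the pLKO.1 vector, shRNA1 and shRNA2, each in 3 libraries, and the matching shRNA control has 2 libraries. ATF7 KO and JDP2 KO cells were made with Lenti-CRISPRv2 constructs and grown as single-cell clones. Each knockout has 2 clones with 2 libraries each, and both knockouts share the same KO control with 2 libraries. Untreated wild type THP1 has 1 library. A further shRNA control library and a further wild type library were labelled low quality and were not analysed. All groups share the THP1 background.

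Cells make cholesterol from acetyl-CoA through the mevalonate pathway. The transcription factors SREBP1 and SREBP2, encoded by SREBF1 and SREBF2, switch on the genes of fatty acid and sterol synthesis. SCAP carries them out of the endoplasmic reticulum when sterols are low, and the INSIG proteins hold them back when sterols are high. In macrophages, surplus sterol is exported by the transporters ABCA1 and ABCG1, which are switched on by the liver X receptors (encoded by NR1H3 and NR1H2), and neutral lipid is stored in droplets coated by perilipins such as PLIN2.

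The libraries held between 28.7 M and 60.2 M reads in genes. Markers of the line (SPI1, CD33, LYZ, PTPRC, CEBPA and CD4) were above 0 in all 19 libraries, and MPO was low at 15.1 to 119 normalized counts. The B cell gene PAX5 was also above 0 in all 19, at 207 to 1670 normalized counts, whereas MS4A1, CD3E and HBB had medians of 0, 0 and 1.83. In 3 libraries more than 20% of genes lay over 2-fold from their median: IRF2BP2 shRNA1 replicate 3 (48.5%), IRF2BP2 shRNA2 replicate 3 (25.6%) and JDP2 KO clone 1 replicate 2 (38.2%). IRF2BP2 mRNA lay at 9456 to 16649 normalized counts in 5 knockdown libraries, below both shRNA control libraries at 16973 and 18382. The highest of these 5, shRNA2 replicate 2 at 16649, was close to the lower shRNA control. It lay within the range of the 5 control libraries of the study, 14859 to 21364. The library labelled IRF2BP2 shRNA2 replicate 3 held 25651, above both controls, which goes against its label. An mRNA level does not check an edited gene, so the ATF7 and JDP2 levels are no test of those labels.

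After IRF2BP2 knockdown, the genes with the lowest p were PLIN2 and ABCA1, of lipid storage and efflux. PLIN2, which coats lipid droplets, had higher levels in each of the 6 knockdown libraries than in all 13 other libraries, but missed the threshold of the test. ABCA1, the main exporter of cholesterol from macrophages, was likewise above both shRNA control libraries in all 6. With limma and Benjamini-Hochberg adjustment over all genes tested, 0 of the 36 genes were called at an adjusted p under 0.05, beside 1.79% of all 12738 genes tested. At an unadjusted p under 0.05, limma counted 3 of the 36 as higher (PLIN2, ABCA1 and EBP) and 0 as lower, beside 8.58% of all genes higher and 5.40% lower. In bulk RNA, more cells of a type and more RNA per cell cannot be told apart. On the reads recovered from the table, edgeR called 0 of the 36 and DESeq2 called 2, PLIN2 and ABCA1. Over all 12738 genes, DESeq2 called 682.

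PLIN2 (chr9:19108375-19149290, minus strand, hg38) had 1202, 1768 and 3493 normalized counts with shRNA1 and 942, 1256 and 1154 with shRNA2, against 373 and 552 in shRNA control. The groups did not overlap, and the 13 libraries outside the knockdown lay between 366 in KO control replicate 1 and 653 in ATF7 KO clone 1 replicate 2. Means were 1636 ± 950 normalized counts in the knockdown (SD, n = 6) and 463 ± 126 in shRNA control (SD, n = 2). The log2 change was 1.69 (SE 0.44, 95% interval 0.74 to 2.65, limma adjusted p = 0.0790). It was higher in 6 of 6 knockdown libraries. Of all genes, 3.69% likewise had every knockdown library above the other 13, and PLIN2 was 1 of 36 here. Without shRNA1 replicate 3 the log2 change of PLIN2 was 1.45 (limma adjusted p = 0.0128), and without all the libraries that stand apart it was 1.47 (limma adjusted p = 0.00407). Without the library labelled shRNA2 replicate 3 it was 1.76 (limma adjusted p = 0.0944), and without shRNA control replicate 1 it was 1.41 (limma adjusted p = 0.776).

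ABCA1 (chr9:104781002-104928237, minus strand) was a weakly expressed gene in this line. It had 18.3, 45.5 and 224 normalized counts with shRNA1 and 33.2, 53.4 and 72.4 with shRNA2, against 4.98 and 14.99 in shRNA control. The groups did not overlap, but 5 libraries outside the comparison lay above the lowest knockdown library, with ATF7 KO clone 2 replicate 1 the highest at 96.0. The log2 change was 2.49 (SE 0.78, limma adjusted p = 0.155), and it was 1.78 without shRNA control replicate 1 (limma adjusted p = 0.990). ABCG1, the partner transporter that loads high-density lipoprotein, had 32.1, 11.4 and 46.0 normalized counts with shRNA1 and 15.2, 6.05 and 7.24 with shRNA2, against 6.97 and 8.43 in shRNA control. Its groups overlapped, and the log2 change of 0.90 had an SE of 0.81 (limma adjusted p = 0.673).

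Neither liver X receptor gene was called. NR1H3, which encodes the receptor LXR alpha, had 222, 161 and 84.8 normalized counts with shRNA1 and 181, 183 and 297 with shRNA2, against 282 and 259.6 in shRNA control. Its log2 change was -0.61 (SE 0.42, limma adjusted p = 0.564), and 5 of 6 knockdown libraries lay below the control mean. NR1H2, for LXR beta, had a log2 change of 0.41 (SE 0.44, limma adjusted p = 0.730). MYLIP, an LXR target whose ubiquitin ligase removes lipoprotein receptors, had 1287, 1547 and 1431 normalized counts with shRNA1 and 1637, 2091 and 2155 with shRNA2, against 1180.3 and 1541 in shRNA control, with a log2 change of 0.30 (SE 0.30, limma adjusted p = 0.709). The median log2 change of the 6 efflux and storage genes was 0.65, beside -0.03 over all genes.

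**Figure D1:**
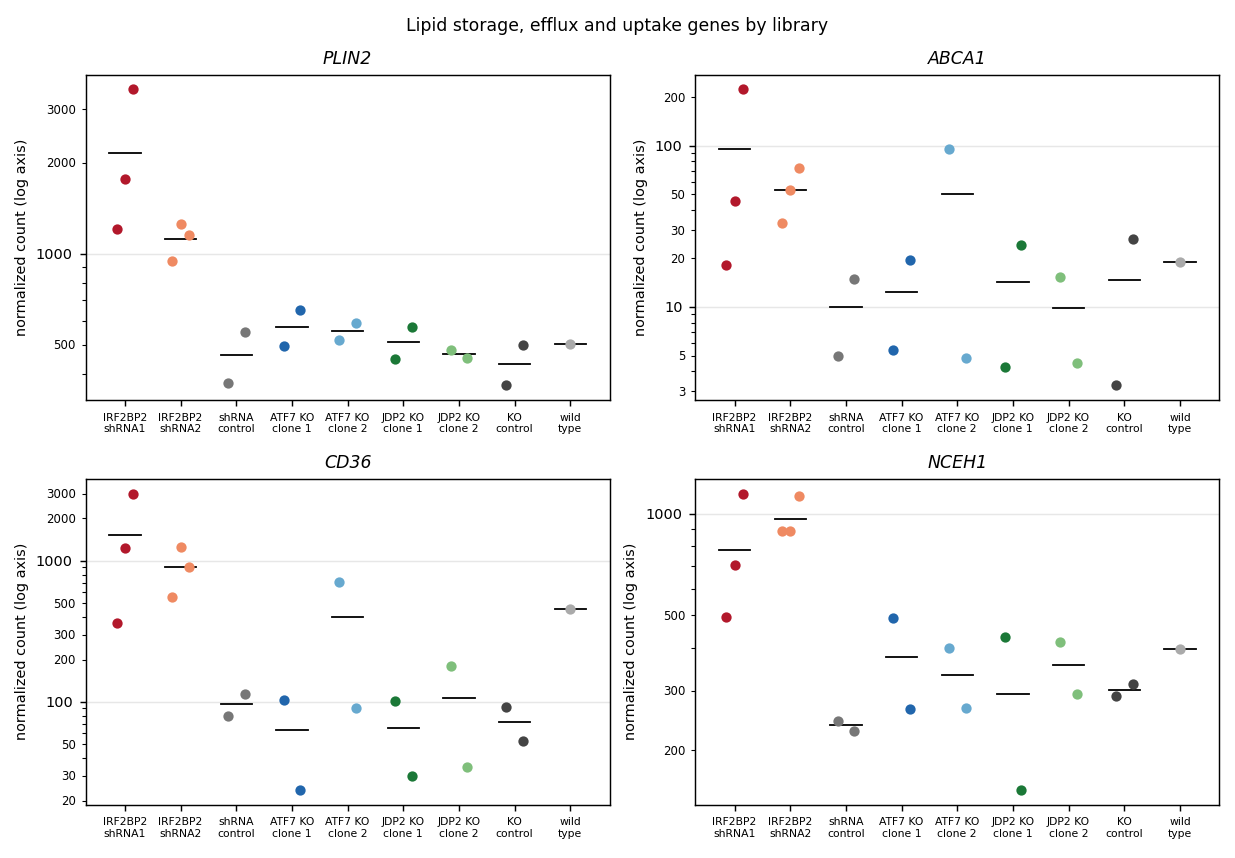
Normalized counts (log axis) of PLIN2, ABCA1, CD36 and NCEH1 in each of the 19 libraries, as points in columns by group, with a bar at the group mean. All 6 IRF2BP2 knockdown libraries of PLIN2 lie between 942 and 3493, above every other library, which lie between 366 and 653. CD36 of the wild type library (456) and of 1 ATF7 KO library (714) reach into the range of the knockdown.

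A further 32 genes of lipid metabolism, none of them among the 38, were examined in the same fit, and 31 passed the filter on low values. Of these, 2 rose after IRF2BP2 knockdown, 0 fell and 29 were not called, beside 1.79% of all genes called. The list was chosen with earlier results of these data known, so its count and median describe the list only. CD36, a scavenger receptor that takes up oxidized lipoprotein and fatty acids, had 360.5, 1228 and 3001 normalized counts with shRNA1 and 556, 1259 and 912 with shRNA2, against 79.6 and 114 in shRNA control (log2 change 3.34, SE 0.61, limma adjusted p = 0.0164). NCEH1, a hydrolase that frees cholesterol from stored esters, had 494, 705 and 1145 normalized counts with shRNA1 and 885, 889 and 1125 with shRNA2, against 245 and 229 in shRNA control (log2 change 1.83, SE 0.34, limma adjusted p = 0.0189). For both genes the groups did not overlap. Both calls ended without either shRNA control library: the limma adjusted p became 0.304 and 0.1001 for CD36 and 0.294 and 0.212 for NCEH1 without replicate 1 and without replicate 3. With edgeR, CD36 had an adjusted p of 0.0524 and NCEH1 of 0.0422. The median log2 change of the 31 genes was 0.29, beside -0.03 over all genes, and it was 0.12 without the library labelled shRNA2 replicate 3 and 0.16 without shRNA control replicate 1. DESeq2 called 3 of the 31, adding ACSL1, an acyl-CoA synthetase, beside 682 of all 12738 genes called by DESeq2.

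All 5 regulators had negative log2 changes after IRF2BP2 knockdown, from -0.79 for SREBF1 to -0.30 for INSIG2, with a median of -0.43, and 0 of 5 were called. With all 5 controls the log2 change of INSIG2 was 0.06. SREBF1 had 8547, 7007 and 1999.7 normalized counts with shRNA1 and 12343, 11517 and 9620.0 with shRNA2, against 14719 and 11187 in shRNA control. The groups overlapped, and shRNA1 replicate 3 alone lay far below the rest (log2 change -0.79, SE 0.58, limma adjusted p = 0.599). Without that library the log2 change was -0.42. SREBF2 had 13630.0, 12438 and 4347 normalized counts with shRNA1 and 14972, 14607 and 19415 with shRNA2, against 16014 and 15092 in shRNA control, with a log2 change of -0.36 (SE 0.50, limma adjusted p = 0.795). INSIG1, itself a target of SREBP, had 10104, 10875 and 9381 normalized counts with shRNA1 and 8118, 10323 and 6636 with shRNA2, against 9658 and 16306 in shRNA control (log2 change -0.46, SE 0.35, limma adjusted p = 0.614). For INSIG1, 1 shRNA control library lay within the range of the knockdown libraries and the other above all of them.

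The 18 tested genes of sterol synthesis had a median log2 change of -0.12 after IRF2BP2 knockdown, with 7 positive and 11 negative, and 0 were called. That median rested on the control libraries, at -0.51 without shRNA control replicate 1, 0.24 without replicate 3 and 0.02 with all 5 controls of the study, and it was 0.00 without shRNA1 replicate 3. HMGCS1, which makes the precursor of mevalonate, had 1189.6, 1676 and 4069.9 normalized counts with shRNA1 and 2446, 2179.9 and 1422 with shRNA2, against 736 and 2451 in shRNA control. The control libraries alone differed more than 3-fold in this gene, and its log2 change was 0.56 (SE 0.50, limma adjusted p = 0.672). SQLE, which forms squalene epoxide, had 6614, 8927 and 7650.5 normalized counts with shRNA1 and 7479, 10628 and 13009 with shRNA2, against 7084 and 11156 in shRNA control (log2 change -0.01, SE 0.36, limma adjusted p = 0.993). EBP, a sterol isomerase, had the lowest p of the group, with 604 to 992 normalized counts in the 6 knockdown libraries (median 645), against 291 and 559 in shRNA control (log2 change 0.77, SE 0.33, limma adjusted p = 0.305). The log2 change of EBP was 0.30 without shRNA control replicate 1 and 1.24 without replicate 3. TM7SF2, a sterol reductase, lay on the other side, with 142 to 526 normalized counts in the knockdown (median 358), against 665 and 550.1 in shRNA control (log2 change -0.87, SE 0.44, limma adjusted p = 0.413). The 18 log2 changes ran from -0.87 to 0.77, and the other enzymes of the pathway, from MVK, PMVK and MVD early in it to DHCR7 late in it, lay within that range. FDPS has 8 pseudogenes named after it and CYP51A1 has 3, and reads shared with those copies could be split in counting. Over all 36 genes the groups did not overlap for 3 that were higher (PLIN2, ABCA1 and EBP) and 2 that were lower (TM7SF2 and LSS), beside 11.1% of all genes higher and 11.2% lower.

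The 7 tested genes of fatty acid synthesis had a median log2 change of -0.13, and 0 were called. Their median was -0.29 without shRNA control replicate 1, 0.15 without replicate 3, and -0.33 with all 5 controls. FASN, the fatty acid synthase, had 26487, 42801 and 10086 normalized counts with shRNA1 and 64190.4, 46433 and 38716 with shRNA2, against 54891 and 57622 in shRNA control. Of the 6 knockdown libraries 5 lay below both controls, and the log2 change was -0.76 (SE 0.61, limma adjusted p = 0.629), or -0.42 without shRNA1 replicate 3. SCD, the desaturase that makes oleate, had 21865, 28825 and 28223 normalized counts with shRNA1 and 32986, 34505 and 15055 with shRNA2, against 23386 and 54097 in shRNA control (log2 change -0.46, SE 0.46, limma adjusted p = 0.709). Between the hairpins, shRNA2 over shRNA1, limma called 0 of the 36 genes and 0 of all 12738 genes (0% called), and 3 of the 36 (SREBF1, MVD and INSIG2) had an unadjusted p under 0.05, beside 7.20% of all genes, with 0 of the 36 by edgeR.

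**Figure D2:**
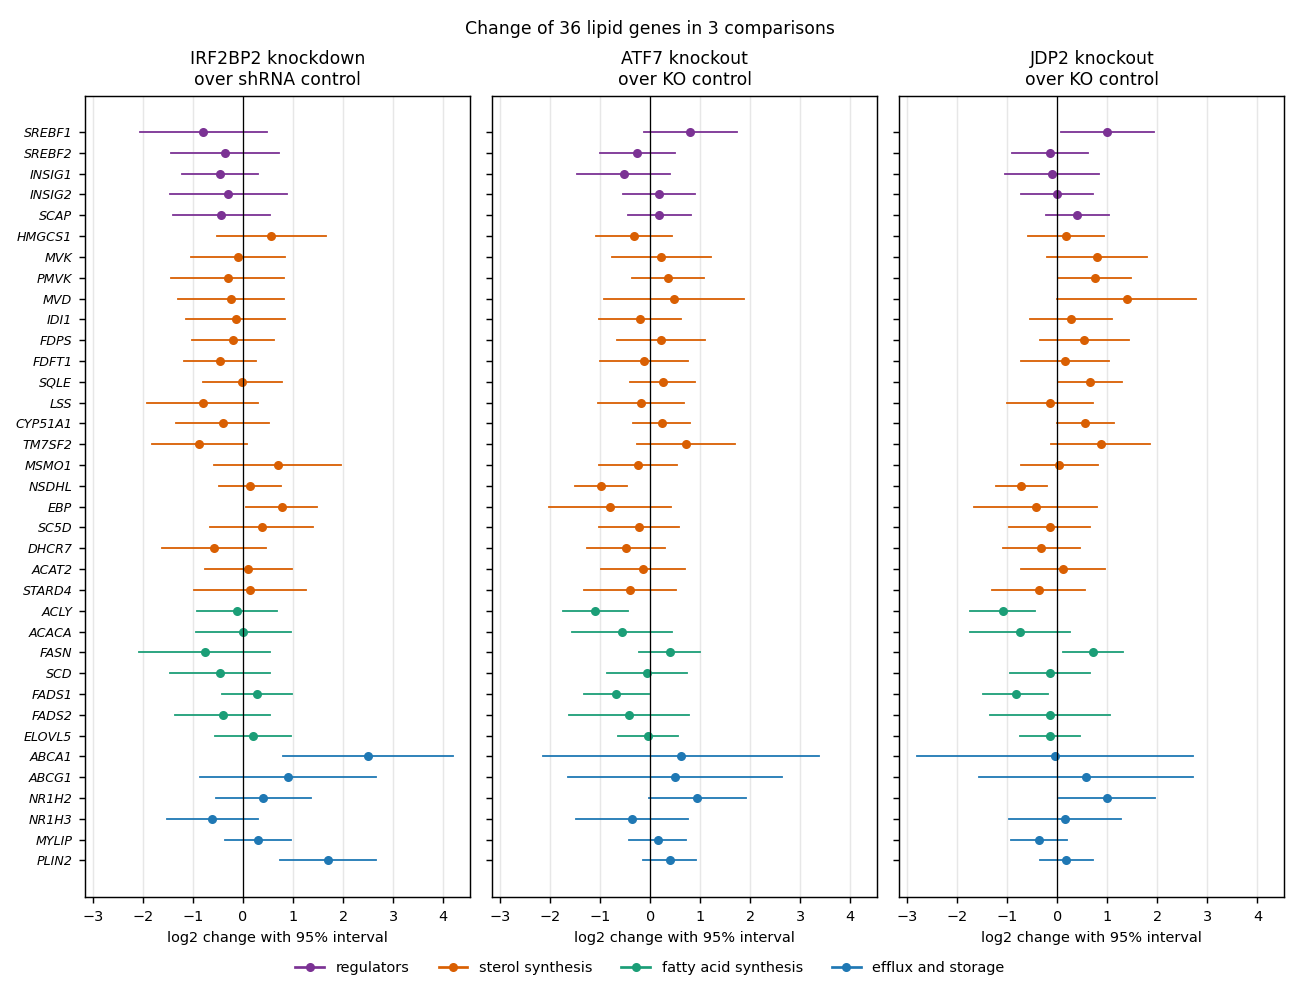
Log2 change (points) with its 95% interval (lines) for the 36 tested genes in IRF2BP2 knockdown over shRNA control, ATF7 KO over KO control and JDP2 KO over KO control, coloured by role. Most intervals cross 0. Those of PLIN2 and ABCA1 in the knockdown and of ACLY and NSDHL in both knockouts are among those that do not, although no gene passed the adjusted threshold.

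The promoter sequences of the 4 genes with the lowest p in the knockdown were searched for motifs known from lipid genes. A match describes the letters only. RefSeq promoters (GRCh38.p14, 250 bases before the gene's start) were found for 33 of the 38 genes. RefSeq's gene start was used, which differs from the outer end of the GENCODE v29 locus, and the windows of PLIN2 and EBP lie wholly inside that locus. Each motif was searched on both strands. PLIN2 and ABCA1 each hold 1 E-box (CACGTG), EBP holds 3 CCAAT boxes and TM7SF2 holds 1, all 4 of them read on the other strand as ATTGG. The motif and 12 bases on either side are printed in the direction of the gene, with the motif in capitals.
PLIN2 E-box at -69, chr9:19127544-19127573, minus strand: gctgccgcgggtCACGTGctgcggaggctt
ABCA1 E-box at -147, chr9:104928285-104928314, minus strand: gggccccggctcCACGTGctttctgctgag
EBP CCAAT box at -191, chrX:48521605-48521633, plus strand: gactcgatgcagATTGGctacggatccaa
EBP CCAAT box at -70, chrX:48521726-48521754, plus strand: aagagagtgtctATTGGttgggagcggca
EBP CCAAT box at -30, chrX:48521766-48521794, plus strand: cttcgcttcaccATTGGctcgctccgtaa
TM7SF2 CCAAT box at -74, chr11:65111786-65111814, plus strand: ccccgagcgccgATTGGctggtgtgctgg
None of the 4 windows held both motifs.

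CCAAT was present in 19 of the 33 promoters, and in 13 of 16 of the sterol synthesis genes, beside 33.0% of all 27305 RefSeq promoters of the same length. The E-box was present in 6 of 33, beside 6.49% of all promoters. A sterol regulatory element written as TCACNCCAC was present in 1 of 33, that of SREBF2, beside 0.875% of all promoters. The DR4 repeat, an element read by liver X receptors, was present in 0 of 33, beside 0.0146% of all promoters. It was searched in 1 spelling, which only 4 of the 27305 promoters held. So rare a spelling cannot decide whether the 33 promoters hold the element, since looser forms were not searched. The sterol regulatory element was also searched in 1 spelling only, so its count does not show that the other promoters lack it. The E-box genes were ABCA1, ELOVL5, INSIG1, PLIN2, SC5D and SCAP.

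In ATF7 KO and in JDP2 KO the genes with the lowest p were lower, and they belong to lipid synthesis: ACLY, which makes cytosolic acetyl-CoA from citrate, and NSDHL, a sterol dehydrogenase. In ATF7 KO, limma called 0 of the 36 genes, beside 0.250% of all 13208 genes tested, and at an unadjusted p under 0.05 it counted 0 higher and 3 lower (ACLY, NSDHL and FADS1), beside 1.76% of all genes higher and 5.32% lower. In JDP2 KO, limma called 0 of the 36 genes, beside 0.674% of all genes, and at an unadjusted p under 0.05 it counted 5 higher (FASN, SREBF1, NR1H2, PMVK and SQLE) and 3 lower (ACLY, NSDHL and FADS1), beside 8.83% higher and 7.96% lower. In each knockout edgeR called 0 of the 36 and DESeq2 called 2, ACLY and NSDHL. Over all 13208 genes, DESeq2 called 223 in ATF7 KO and 526 in JDP2 KO. Both knockouts were set against the same 2 KO control libraries, so like values in the 2 comparisons are not separate evidence.

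ACLY (chr17:41866908-41930542, minus strand) had 8611, 6985, 7091 and 6493 normalized counts in ATF7 KO and 9579, 4656, 8531 and 7256 in JDP2 KO, against 15659 and 15316 in KO control. The KO control libraries stood above the other 17 libraries, which lay between 4656 and 11947, and wild type was at 9364. ACLY was the 1 gene of 36 in which both KO control libraries exceeded all others, beside 2.35% of all genes. The log2 change was -1.09 in ATF7 KO (SE 0.30, limma adjusted p = 0.230) and -1.10 in JDP2 KO (SE 0.30, limma adjusted p = 0.142), lower in 4 of 4 libraries of each. Against all 5 control libraries of the study, the log2 changes were -0.66 in ATF7 KO (limma adjusted p = 0.396) and -0.66 in JDP2 KO (limma adjusted p = 0.0970).

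NSDHL (chrX:152830967-152869729, plus strand) had 708, 843, 633 and 645 normalized counts in ATF7 KO and 796, 863, 869.6 and 841 in JDP2 KO, against 1178 and 1635 in KO control. Its groups did not overlap, and wild type, at 837, lay within the range of the JDP2 KO libraries. The log2 change was -0.98 in ATF7 KO (SE 0.24, limma adjusted p = 0.146) and -0.72 in JDP2 KO (SE 0.24, limma adjusted p = 0.206). Against all 5 controls these were -0.60 in ATF7 KO and -0.34 in JDP2 KO.

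**Figure D3:**
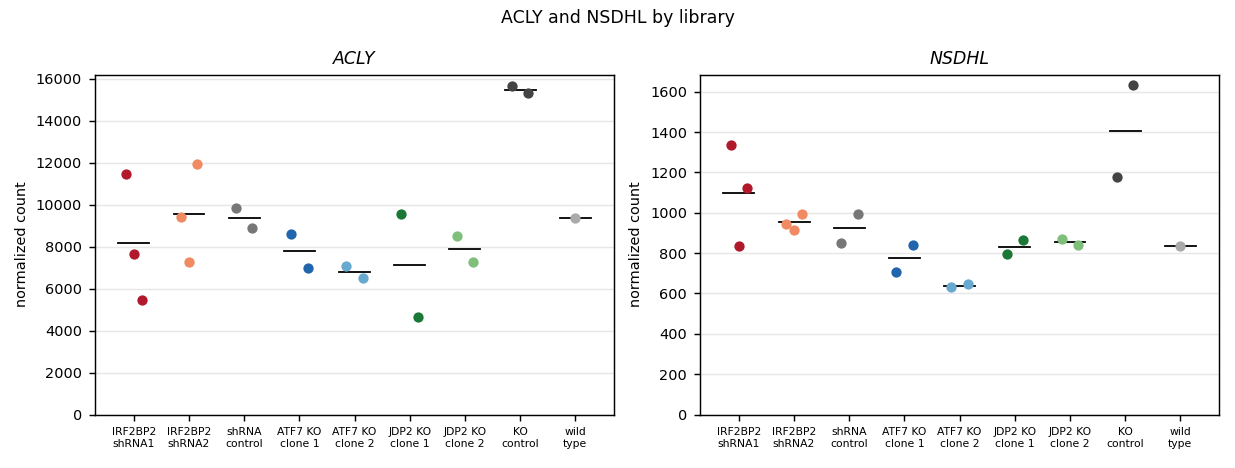
Normalized counts of ACLY and NSDHL in each of the 19 libraries, as points in columns by group, with a bar at the group mean and the axis from 0. The KO control libraries of ACLY (15659 and 15316) lie above all other libraries, including shRNA control (9826 and 8908) and wild type (9364).

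Of the other fatty acid synthesis genes, 0 were called in either knockout. FASN had 66131, 76941, 55145 and 79179 normalized counts in ATF7 KO and 76532, 101967, 75486 and 91761 in JDP2 KO, against 61142 and 45024 in KO control. All JDP2 KO libraries lay above both KO control libraries (log2 change 0.71, SE 0.28, limma adjusted p = 0.249), while ATF7 KO overlapped them (0.39, SE 0.28, limma adjusted p = 0.794). Wild type, at 77260, lay within the range of the JDP2 KO libraries, and shRNA control, at 54891 and 57622, lay below it. FADS1, a desaturase of polyunsaturated fatty acids, lay below both controls in each knockout, at 4223, 4341, 2275 and 2642 normalized counts in ATF7 KO and 3102, 2827, 2918 and 2830.3 in JDP2 KO, against 4446 and 6064 in KO control. Its log2 change was -0.68 in ATF7 KO (SE 0.30, limma adjusted p = 0.673) and -0.83 in JDP2 KO (SE 0.30, limma adjusted p = 0.233). SCD had 29571, 45315, 19644 and 23966 normalized counts in ATF7 KO and 29137, 19298, 27795 and 31968 in JDP2 KO, against 22156 and 39216 in KO control, and overlapped the control in both. The median log2 change of the 7 genes was -0.43 in ATF7 KO and -0.15 in JDP2 KO, beside 0.04 and 0.00 over all genes. In ATF7 KO it was -0.06 without clone 2 replicate 1 and -0.20 without KO control replicate 2, and in JDP2 KO -0.56 without KO control replicate 1 and near 0 without replicate 2.

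Among the regulators, SREBF1 had the lowest p in both knockouts. It had 12754, 18401, 8339 and 17618 normalized counts in ATF7 KO and 10199, 28057, 11409.7 and 18269.7 in JDP2 KO, against 8874 and 6868 in KO control. All JDP2 KO libraries lay above both controls, and 1 ATF7 KO library lay between them. The log2 change was 0.80 in ATF7 KO (SE 0.43, limma adjusted p = 0.736) and 1.00 in JDP2 KO (SE 0.43, limma adjusted p = 0.278). The KO control values were the lowest of the 5 control libraries, since shRNA control had 14719 and 11187 and wild type 13189. With the trend on GC content removed, the log2 change was 0.44 in ATF7 KO and 0.37 in JDP2 KO. SREBF2 had 15081, 20246, 7586 and 12992 normalized counts in ATF7 KO and 14882, 11660.2, 14158 and 16451 in JDP2 KO, against 17211 and 14342 in KO control, and overlapped the control in both. INSIG1 had 8834, 16743, 6244 and 13723 normalized counts in ATF7 KO and 9489.7, 19099, 11501 and 19995 in JDP2 KO, against 12209 and 19306 in KO control, again with overlap.

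The 18 tested genes of sterol synthesis had a median log2 change of -0.16 in ATF7 KO, with 7 positive and 11 negative, and of 0.16 in JDP2 KO, with 12 positive and 6 negative. Both signs rested on the control libraries: without KO control replicate 1 the medians were -0.47 in ATF7 KO and -0.22 in JDP2 KO, and without replicate 2 they were 0.22 in ATF7 KO and 0.51 in JDP2 KO. The ATF7 KO median was also positive without clone 2 replicate 1, at 0.06. HMGCS1 had 679, 782, 631 and 738 normalized counts in ATF7 KO and 1076, 1299.7, 798 and 904 in JDP2 KO, against 541 and 1444 in KO control, so that every knockout library lay between the controls. SQLE had 10223, 12573, 6152 and 8137 normalized counts in ATF7 KO and 14595, 10372, 10988 and 11769 in JDP2 KO, against 7692 and 7351 in KO control. In SQLE the JDP2 KO libraries did not overlap KO control while the ATF7 KO libraries did (log2 change in JDP2 KO 0.65, SE 0.30, limma adjusted p = 0.296). For SQLE, shRNA control replicate 3, at 11156, lay within the JDP2 KO range. Its shRNA control replicate 1 (7084) and wild type (9084) values lay below that range. In JDP2 KO, 8 of the 36 genes lay above both controls without overlap and 3 below, beside 13.0% and 13.8% of all genes, and in ATF7 KO 0 above and 4 below, beside 7.82% and 10.6%. MVD, which makes isopentenyl diphosphate, reached 35682 normalized counts in JDP2 KO clone 1 replicate 2, while the other JDP2 KO libraries had 6072, 6311 and 10869 and KO control had 4539 and 3939.

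For efflux and storage, PLIN2 had 494, 653, 519.5 and 591 normalized counts in ATF7 KO and 449, 572, 479 and 451 in JDP2 KO, against 366 and 499 in KO control. Both overlapped the control, with log2 changes of 0.39 in ATF7 KO (SE 0.25, limma adjusted p = 0.777) and 0.18 in JDP2 KO (SE 0.25, limma adjusted p = 0.752). ABCA1 had 5.39, 19.5, 96.0 and 4.80 normalized counts in ATF7 KO and 4.22, 24.2, 15.4 and 4.49 in JDP2 KO, against 3.26 and 26.3 in KO control. ABCG1 had 17.2, 18.4, 89.1 and 4.80 normalized counts in ATF7 KO and 17.9, 54.1, 9.60 and 20.2 in JDP2 KO, against 13.0 and 14.5 in KO control. The highest ABCA1 and ABCG1 values of the knockout libraries were both in ATF7 KO clone 2 replicate 1. NR1H2 had the lowest p of this group in both knockouts, with log2 changes of 0.95 in ATF7 KO (SE 0.44, limma adjusted p = 0.705) and 0.99 in JDP2 KO (SE 0.44, limma adjusted p = 0.289). Without KO control replicate 2 these were 0.53 in ATF7 KO and 0.58 in JDP2 KO. NR1H2 overlaps NAPSA on the other strand, and whether counting used strand is not given in the sources used here. MYLIP had 1121, 1016, 1217 and 1235 normalized counts in ATF7 KO and 921, 567, 980.4 and 801 in JDP2 KO, against 1099 and 968 in KO control. In the further list of lipid genes, limma and edgeR each called 0 of 31 in ATF7 KO, beside 0.250% of all genes by limma, and 0 of 31 in JDP2 KO, beside 0.674%. DESeq2 called 1 lower in ATF7 KO (ACSL5) and 5 lower in JDP2 KO (ACSL5, ELOVL1, CPT1A, ACACB and AACS). Over all 13208 genes, in both directions, DESeq2 called 223 in ATF7 KO and 526 in JDP2 KO. At an unadjusted p under 0.05, limma counted 7 lower in ATF7 KO, beside 5.32% of all genes lower, and 1 higher and 7 lower in JDP2 KO, beside 8.83% higher and 7.96% lower.

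The clones of 1 knockout were compared with each other. Between ATF7 KO clone 2 and clone 1, limma called 0 of the 36 genes, beside 0.303% of all genes, edgeR called 0, and 7 had an unadjusted p under 0.05, beside 6.62% of all genes. NR1H3 had the lowest p, with 77.5 and 103 normalized counts in clone 2 and 239 and 368 in clone 1 (log2 change -1.72, SE 0.36, limma adjusted p = 0.107). NR1H3 overlaps ACP2 on the other strand. All 18 tested sterol synthesis genes had a negative log2 change, clone 2 over clone 1, with a median of -0.54, and in clone 2 replicate 1 all 18 were below their median over the 19 libraries, with a median deviation of -0.91 on the log2 scale. Without clone 2 replicate 1 the median log2 change was -0.07 with 8 of 18 positive, and without clone 1 replicate 2 it was -0.20 with 5 positive. The median deviation was -0.08 in clone 2 replicate 2, and -0.14 and 0.47 in the clone 1 libraries. Between JDP2 KO clone 2 and clone 1, limma called 0 of the 36 genes, beside 0.136% of all genes, edgeR called 0, and 0 had an unadjusted p under 0.05, beside 2.48% of all genes.

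JDP2 KO was also set against ATF7 KO, where the log2 change does not involve the shared control. The KO control libraries were still in that fit and entered its SE and p-values. There limma called 0 of the 36 genes and 0 of all genes (0% called), edgeR called 0 of the 36, and 1 of the 36, MYLIP, had an unadjusted p under 0.05, beside 2.19% of all genes, with a log2 change of -0.52 (SE 0.21, limma adjusted p = 0.999). The 18 sterol synthesis genes were all positive, with a median log2 change of 0.31, and without ATF7 KO clone 2 replicate 1, in which all 18 were low, 14 of 18 were positive with a median of 0.15. Without ATF7 KO clone 1 replicate 2 the median was 0.48. The median was -0.08 over the 7 fatty acid synthesis genes, beside -0.01 over all genes.

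The effect of the knockdown was set against the effect of both knockouts together by an interaction contrast. It called 0 of the 36 genes, beside 1.61% of all 13057 genes, edgeR called 0 of the 36, and 7 had an unadjusted p under 0.05, beside 17.5% of all genes. NSDHL had the lowest p, with a difference of 0.99 on the log2 scale (SE 0.33, limma adjusted p = 0.125). The difference for PLIN2 was 1.41 (SE 0.49, limma adjusted p = 0.144) and did not pass the threshold. Without the libraries that stand apart the difference for PLIN2 was 1.20 (limma adjusted p = 0.0492). For ABCA1 the difference was 2.21 (SE 1.44, limma adjusted p = 0.438). Of the further lipid genes, ACSL5, an acyl-CoA synthetase that activates long-chain fatty acids, was called, with a difference of 1.44 (SE 0.33, limma adjusted p = 0.0346). ACSL5 had 1465 to 2413 normalized counts in the knockdown (median 1567), against 1171 and 1248 in shRNA control, and 621 to 983 in the 8 knockout libraries, against 1510.5 and 1419 in KO control. That call ended without either shRNA control library, without either KO control library and without JDP2 KO clone 2 replicate 2.

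The levels of the 36 genes also followed the GC content of their transcripts in several libraries. GC content ranged from 34.2% for STARD4, a sterol carrier, to 65.3% for FASN, with a median of 50.3%. In IRF2BP2 shRNA1 replicate 3, the 18 genes richer in GC deviated from their medians over the libraries by a median of -1.55 on the log2 scale and the 18 poorer in GC by 0.94, and Spearman's rho between deviation and GC content was -0.77 over the 36 genes of this 1 library. It was also -0.79 in shRNA1 replicate 2 and -0.72 in shRNA2 replicate 2, where the GC-rich genes deviated by medians of only -0.29 and -0.13. In JDP2 KO clone 1 replicate 2, rho was 0.59, and the median deviation of the GC-rich genes was 0.80. The control libraries differed as well: rho was 0.54 in shRNA control replicate 1 and -0.68 in replicate 3, and 0.52 in KO control replicate 1 and -0.60 in replicate 2. Over 12651 genes, Pearson's r was -0.46 in IRF2BP2 shRNA1 replicate 3 and 0.44 in JDP2 KO clone 1 replicate 2. Over the 36 genes, Pearson's r in these was -0.76 and 0.54. The other libraries named here had a weaker r over 12651 genes. It was -0.31 in shRNA1 replicate 2 and -0.15 in shRNA2 replicate 2. In shRNA control it was 0.12 in replicate 1 and -0.22 in replicate 3, and in KO control 0.12 in replicate 1 and -0.39 in replicate 2. The trend on GC content was removed from each library as an alternative. PLIN2 (GC content 48.9%) then had a log2 change of 1.67 in the knockdown (limma adjusted p = 0.0320). Its removal turned the median log2 change of the 5 regulators in ATF7 KO to -0.14, from 0.18 with the trend kept, and moved that of fatty acid synthesis in JDP2 KO to -0.36 and that of sterol synthesis in the knockdown to -0.04.

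**Figure D4:**
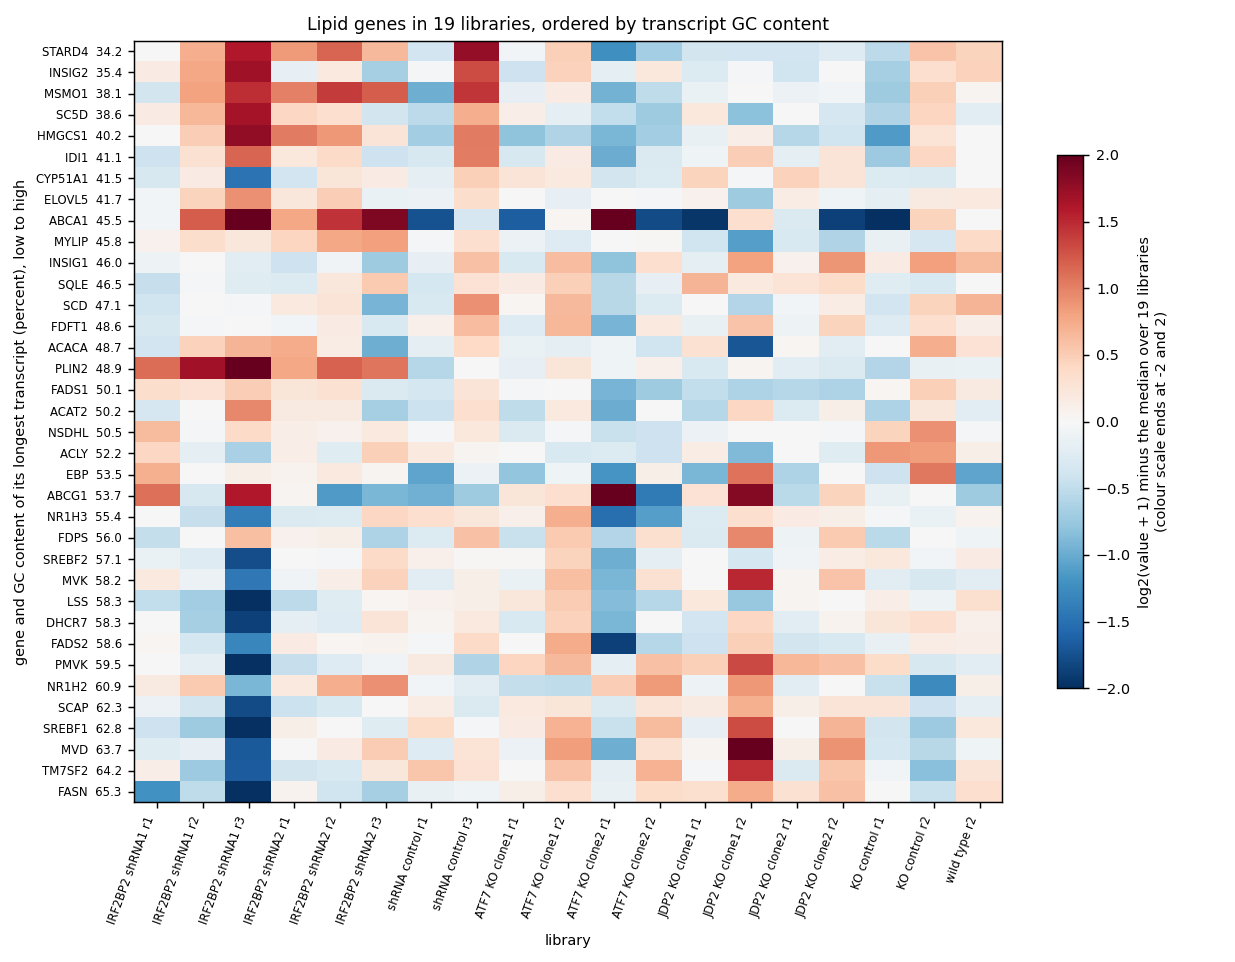
Log2(normalized count + 1) of 36 genes in 19 libraries, each as the difference from the gene's median, with genes ordered from low GC content (top) to high (bottom) and the colour scale ending at -2 and 2. The column of IRF2BP2 shRNA1 replicate 3 turns from above the median at low GC content to below it at high GC content, and that of JDP2 KO clone 1 replicate 2 is highest among genes of high GC content. PLIN2 is above its median in all 6 knockdown columns.

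The 5 control libraries set the scale for these genes. MSMO1, a sterol methyl oxidase, lay between 468 and 2493 normalized counts in them (5.33-fold), STARD4 between 451 and 2197 (4.87-fold), HMGCS1 between 541 and 2451 (4.53-fold) and EBP between 289 and 1259 (4.35-fold). SREBF2 varied 1.20-fold and DHCR7, an enzyme that completes cholesterol synthesis, 1.22-fold. The median ratio of highest to lowest control was 1.97 for the 18 genes poorer in GC and 1.77 for the 18 richer in GC, beside 1.74 for all genes above 0 in every control. PLIN2 varied 1.51-fold over the controls, and ABCA1 8.08-fold.

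The authors' deposited table for IRF2BP2 knockdown took all controls, whereas the main test here took shRNA control alone. The labels of the knockout tables name only controls. The log2 fold changes in the authors' deposited tables are moderated in size, so they and the counts of calls are not like for like with the tests here. In the authors' deposited table for IRF2BP2 knockdown against all controls, 2279 of 13048 genes with an adjusted p were called (17.5%). Of the 36 genes, 2 were called in it, both higher. These were PLIN2, with a log2 fold change of 1.69 in the authors' deposited table (adjusted p = 3.01e-09), and ABCA1, with 1.52 in the authors' deposited table (adjusted p = 0.00827). In the authors' deposited table for ATF7 KO, 40 of 12687 genes were called (0.315%), with 0 of the 36. In the authors' deposited table for JDP2 KO, 1489 of 12324 genes were called (12.1%), and MVD was higher (log2 fold change 1.23) while FADS1 (-0.68) and MYLIP (-0.60) were lower. ACLY and NSDHL were called in neither knockout in the authors' deposited tables. The Wald score in the authors' deposited tables has the sign opposite to the log2 fold change in 100% of genes, and directions were read from the log2 fold change, under which PLIN2 is higher in the knockdown as in the normalized counts.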

How the data were processed

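RNA-seq of THP1 cells was deposited as normalized counts (a signal on the authors' size-factor scale) for 19 libraries, with tables of log2 fold changes, Wald scores and adjusted p-values that the authors deposited for each comparison. Reads were counted with featureCounts on hg38 and compared with DESeq2, per the submitters' processing notes; their versions and the aligner, annotation and strand setting were not given in the sources used. Another 2 libraries, an shRNA control and a wild type library, were labelled low quality and were not analysed here. Each normalized count is a whole number of reads divided by a size factor: 100 percent of 388037 values came out whole. The margin was 0.01 at low counts and grew with the count, so the largest counts could not fail. The libraries held 28.7 M to 60.2 M reads.

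Genes with a mean of at least 10 normalized counts were tested on log2(value + 1) with limma 3.58.1 (R 4.3.3), with Benjamini-Hochberg adjustment over all genes tested and a threshold of 0.05. A fold change on this scale understates the change of weakly expressed genes. Recovered reads were tested with edgeR 4.0.16 and DESeq2 1.42.0 as alternatives. The scripts were checked on simulated data. The labels do not say that replicates came from separate cultures, so each p-value measures library-to-library spread only, possibly of technical origin. Same-numbered libraries deviated together in some groups and not in others: 11 of 27 pairs had a correlation over 0.1 (range -0.58 to 0.58). In groups of 2 libraries the deviations mirror each other, so the 27 pairs are not all separate. The numbers were not taken to pair libraries.

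The genes and lists were chosen with earlier results of these data known. Values in every library were given for genes called and for a fixed set of regulators, enzymes and transporters, and a test for the gene of each role with the lowest p. The removal of a GC trend, and the tests printed for other genes, were chosen after seeing the data. GC content is that of the longest GENCODE v29 transcript. Promoters are those of RefSeq on GRCh38.p14.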

Additional observations from a re-analysis of the deposited data

Results flagged for a closer look

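In groups of 4 to 10 libraries, the value farthest from the rest was compared with the range of its group. This picked out 15 of 108 groups tested, where chance gives about 1 in 20. In the IRF2BP2 knockdown, shRNA1 replicate 3 was the lowest library for 9 genes: SREBF1 at 1999.7 normalized counts, SREBF2 at 4347.3, SCAP at 2721.2, MVK at 802.6, PMVK at 1294.1, MVD at 1805, LSS at 1447.2, CYP51A1 at 477.1 and FADS2 at 8075.1. It is also the library with the most genes over 2-fold from their median, at 48.5%, and its rho with GC content was -0.77. In shRNA1 replicate 2 rho was -0.79. The GC-rich genes deviated by a median of -1.55 in replicate 3 and -0.29 in replicate 2. The part of that spread or of GC content in the values of the 9 genes was not tested gene by gene. In shRNA1 replicate 1, MSMO1 was lowest at 713.6 normalized counts and EBP highest at 991.5. FADS1 was lowest at 3537.5 normalized counts in the library labelled IRF2BP2 shRNA2 replicate 3. Among knockout libraries, SCAP was lowest at 7775.7 normalized counts in ATF7 KO clone 2 replicate 1, STARD4 highest at 541.8 in JDP2 KO clone 2 replicate 2 and FADS2 highest at 27896.4 in JDP2 KO clone 1 replicate 2. The effect of the knockdown on ACSL5 minus that of the knockouts was 1.44 on the log2 scale by the interaction contrast (limma adjusted p = 0.0346).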

How the results depend on the processing

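No direction reversed among the genes followed through every alternative: SREBF1, EBP, FASN, PLIN2, ABCA1, CD36 and NCEH1 in the knockdown, SREBF1, NSDHL, ACLY and NR1H2 in the knockouts, and PLIN2 and ACSL5 in the interaction. Among other genes, INSIG2 had 0.06 in the knockdown with all 5 controls, against -0.30 with the shRNA controls alone. Signs of sterol synthesis genes changed as well. Of the 18 tested, 7 were positive in the knockdown. That number was 3 without shRNA control replicate 1, 12 without replicate 3 and 10 with all 5 controls. In the IRF2BP2 knockdown, where limma called 0 of the 36 genes, the count was 1 (PLIN2) without the libraries that stand apart, with the GC trend removed or in 1 fit of all libraries, and 2 (PLIN2 and ABCA1) with DESeq2, all 5 controls, array weights or the GC trend removed with a replicate block; leaving out 1 library gave 0 to 1. Over all genes, 228 calls became 124 with edgeR, 1251 without the libraries that stand apart, 853 with the GC trend removed, 682 with DESeq2, 1561 with all 5 controls, 1514 with array weights, 380 in 1 fit and 1268 with the GC trend removed and the block; leaving out 1 library gave 11 (shRNA control replicate 1) to 609 (shRNA1 replicate 3). In ATF7 KO, 0 of 36 became 1 without the libraries that stand apart and 2 with DESeq2, and leaving out 1 library gave 0 to 1. Over all genes, 33 became 19 with no filter, 74 with the replicate block, 98 without the libraries that stand apart, 223 with DESeq2, 3 with all 5 controls, 0 in 1 fit and 97 with GC and block, and leaving out 1 library gave 0 (KO control replicate 1) to 98 (JDP2 KO clone 1 replicate 2, which shares the spread). In JDP2 KO, 0 of 36 became 2 with DESeq2 and 1 (PMVK) with all 5 controls. Over all genes, 89 became 53 with no filter, 161 with the block, 526 with DESeq2, 919 with all 5 controls, 185 with array weights and 191 with GC and block, and leaving out 1 library gave 0 (either KO control) to 125. Between ATF7 KO clones, 0 became 1 (NR1H3) with the replicate block or without the libraries that stand apart, and leaving out 1 library gave 0 to 1, as it did between JDP2 KO clones. For the knockdown effect minus the knockout effect, 0 became 1 (PLIN2) without the libraries that stand apart. The cause was not tested. The replicate block left 209 calls in the knockdown and 0 of 36 genes called in each of the 3 main comparisons.

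With 2 libraries in each control group, leaving out either one removed most calls. ABCA1 and ABCG1 had few reads, and an offset of 8 gave ABCA1 a log2 change of 1.88.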
